A study of Rattus norvegicus with 19 samples.

Results

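Brain RNA of daughters of rats fed a high-fat diet (HFD) was compared with that of daughters of control fathers. The 9 libraries were chosen by the father's treatment in the sample labels, 4 from the HFD group and 5 from the control group, out of 19 libraries in the series. All animals were female Wistar rats that themselves ate chow, with 1 library per sample. The other 10 libraries came from daughters of fathers with early life stress (ELS, maternal separation in the series text, 5) or with both exposures (ELS-HFD, 5), and were used to estimate the spread between animals and as a reference for levels. An anxiety test in the elevated plus maze preceded sampling, at postnatal day 57 ± 1, and about 400 ng of RNA, enriched for polyadenylated transcripts, was taken into each library. The labels give the brain as the tissue, and the series text gives the amygdala. The series text also speaks of male rats, and the label of each sample was followed here. The labels name no father or litter, so the replicates may include sisters, and the p-values describe the spread between these animals only.

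A father's diet is thought to reach offspring that never ate it through sperm, seminal fluid or the mother's response to him, and such designs therefore keep the offspring on chow. The amygdala is the group of nuclei in the temporal lobe that links sensory input to fear and anxiety, the behaviour that the plus maze measures. It borders the temporal horn of the lateral ventricle, which holds choroid plexus, the epithelium that makes cerebrospinal fluid. Transthyretin, a carrier of thyroid hormone and of the retinol-binding protein, is among the most abundant transcripts of that epithelium and is scarce in most of the brain.

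The deposited table lists Ensembl gene IDs with no gene names, and 0 of its 32883 IDs could be paired with a symbol here. Markers of the amygdala, of its cell types and of pathways could therefore not be looked up, and the labelled tissue was not checked against them. ENSRNOG00000016275 is called transthyretin because that identity was given with the comparison; it was not checked against an annotation. Of the remaining IDs, 4 are printed: the pair with the smallest p in each direction among IDs with a mean of at least 1 CPM in either group.

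HFD replicate 1 was the highest or the lowest of the 9 libraries for most of the IDs tested. It held 14102138 counts, within the range of 10092297 to 20266594 of the 9 libraries, and 17632 IDs with a count, against 17877 to 18767 in the others. Its 10 most abundant IDs took 25.8% of the counts, and the same 10 IDs took 10.8% to 13.3% in the other 8. The TMM factor, which corrects for such a shift in composition, was 0.772 against 0.985 to 1.03. It was the highest for 5194 IDs and the lowest for 5608, where any other library was the highest for 709 to 2269 and the lowest for 858 to 1873. Relative to the median of the other 8, it was more than 2-fold higher for 1476 IDs and more than 2-fold lower for 2933. No other library of the 2 groups passed 482 and 446.

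Transthyretin was present in all 5 control libraries and close to absent in all 4 HFD libraries. Among daughters of control fathers it was at 4632, 2351, 1125, 876.9 and 321.0 CPM (counts brought to a common library total, with a correction for library composition) in replicates 1 to 5. Among daughters of HFD fathers it was at 2.30, 2.59, 1.55 and 0.684 CPM in replicates 1 to 4, from 7 to 37 counts. The groups did not overlap, and the mean of 1861 ± 1718 CPM (SD, n = 5) in controls was 1045 times the mean of 1.78 ± 0.852 CPM (SD, n = 4) in HFD. The spread within the ELS and ELS-HFD groups was as wide as this gap. ELS libraries were at 6.83, 1.72, 0.906, 1.10 and 4377 CPM, and ELS-HFD libraries at 0.766, 841.8, 832.6, 5.10 and 10590 CPM. Both of those groups thus held libraries at the level of the controls and libraries at the level of the HFD group.

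**Figure D1:**
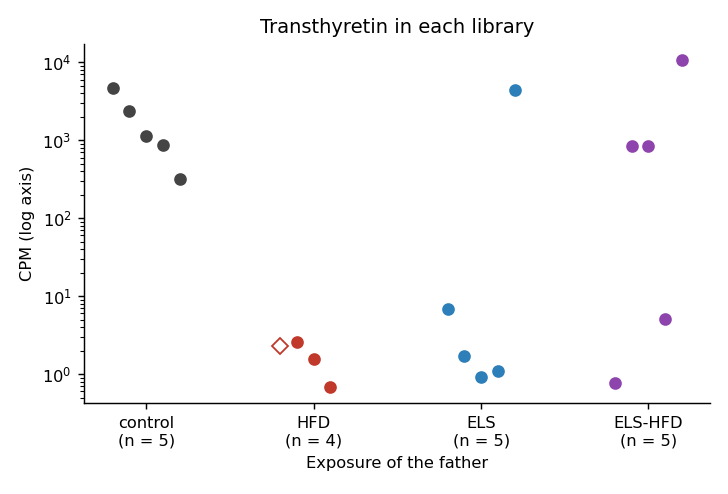
Transthyretin (ENSRNOG00000016275) in CPM on a log axis, 1 point per library, by the father's exposure; the open diamond is HFD replicate 1. The 5 control libraries lie at 321.0 to 4632 CPM and the 4 HFD libraries at 0.684 to 2.59 CPM, while the ELS and ELS-HFD groups hold libraries at both levels.

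The test on transthyretin depended on which libraries set the spread. Its log2 fold change was -10.00 ± 3.09 (SE) in the edgeR fit to all 19 libraries, with an adjusted p of 0.616. In an edgeR fit to the control and HFD libraries alone the SE was 0.98 around -9.99 and the adjusted p was 0.0129. DESeq2 over 19 libraries gave -10.02 (adjusted p = 0.000393). Leaving out HFD replicate 1 gave -10.11 (edgeR adjusted p = 1.00), and in the fit to the 2 groups alone an adjusted p of 0.0194. Over the 19 settings in which transthyretin was not part of the model, the adjusted p ran from 0.000393 to 1.00 and the log2 fold change from -10.28 to -9.33. In whole tissue, fewer cells that make a transcript and less of it per cell cannot be told apart.

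The level of transthyretin was accompanied by that of other IDs, and these were found in libraries that take no part in the comparison. In the 10 ELS and ELS-HFD libraries, 267 further IDs had a positive slope on the log2 CPM of transthyretin at an edgeR adjusted p under 0.05, out of 15372 tested (1.74% with transthyretin itself), and 1 ID had a negative slope. Together the 267 IDs held 3758 to 8586 CPM in the control libraries and 2759 to 4685 CPM in the HFD libraries. Control replicates 1 and 2, with the most transthyretin, also had the highest sums, at 8586 and 6042 CPM. HFD replicate 1, at 4685 CPM, was above 3 of the 5 controls, and the other 3 HFD libraries, at 2759 to 3056 CPM, were below all controls. The CPM of HFD replicate 1 carries its TMM factor of 0.772. As a plain share of counts, the 267 IDs held 0.374% to 0.874% in controls and 0.278% to 0.362% in HFD libraries. By that measure the groups did not overlap, and HFD replicate 1 was the highest of the HFD libraries. The plain share has no correction for composition, and a few IDs made up an unusually large part of HFD replicate 1. This lowers the share left there for the 267 IDs. The gap therefore rests on an uncorrected measure, and by CPM the groups overlapped.

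Between HFD and control, 253 of these 267 IDs were lower in HFD and 14 higher. Their median log2 fold change was -1.37 (quartiles -2.61 and -0.54), against a median of 0.01 for the other 15104 IDs. At an unadjusted p under 0.05 in edgeR, 101 of them were lower and 0 higher, where 3.02% of all IDs tested were lower and 4.77% higher. None had an adjusted p under 0.05 in the 19-library fit. That fit counts as spread the variation within ELS and ELS-HFD by which these IDs were chosen, which tends to raise their p. Without HFD replicate 1, the median was -1.41 and 263 of 267 were lower, 81 of them at an unadjusted p under 0.05, where 2.45% of all IDs were lower and 1.33% higher. The edgeR fit to the 2 groups alone tested 238 of these IDs. There 153 were lower and 0 higher at an unadjusted p under 0.05, and 2 were called at an adjusted p under 0.05. Of all IDs in that fit, 2.94% were lower and 2.26% higher at the unadjusted threshold. Of the 247 IDs that were lower in every HFD library than in every control library (1.61% of those tested), 102 were among the 267, and of the 95 that were higher without overlap (0.618%), 0 were. Without HFD replicate 1, 451 IDs were lower without overlap (2.93%), 131 of them among the 267, and 253 were higher (1.65%), 0 of them among the 267. The part of choroid plexus tissue in these differences was not tested, since its other defining transcripts could not be looked up.

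Transthyretin was then entered as a covariate. Among control and HFD libraries alone, the group accounted for 95.1% of the variance of its log2 CPM, so the diet and transthyretin cannot be told apart there; the standard error that the design allows became 4.52 times as large. Across all 19 libraries the 4 groups accounted for 50.1%, and the factor was 1.36. Adjusted values of HFD minus control therefore rest on the slope seen mainly among ELS and ELS-HFD libraries, of which 4 of 10 were above 100 CPM of transthyretin. ELS-HFD replicates 2 and 3, which are 2 of those 4, also stood apart in composition: their 10 most abundant IDs took 14.8% and 16.7% of the counts, and 1169 and 1068 IDs were more than 2-fold below the median of the control and HFD libraries. Without this pair, 390 IDs followed transthyretin in the remaining 8 libraries (2.54% of IDs tested, with transthyretin itself), 260 of the 267 among them. Between HFD and control these 390 had a median log2 fold change of -0.89, with 366 lower and 24 higher.

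With the log2 CPM of transthyretin in the 19-library model, edgeR called 0 IDs at an adjusted p under 0.05. There 616 IDs were higher (4.01%) and 269 lower (1.75%) at an unadjusted p under 0.05. Of the 464 IDs at an unadjusted p under 0.05 that were lower in HFD without the covariate, 85 (18.3%) were still lower at that p with it, and 351 kept their sign. Of the 734 that were higher, 199 (27.1%) were still higher at that p, and 732 kept their sign. The median log2 fold change of the lower IDs moved from -0.79 to -0.34, and that of the higher IDs from 0.48 to 0.49. The lower IDs moved more than the higher ones, but 101 of the 464 lower IDs (21.8%) were among the 267, and 0 of the 734 higher IDs. This contrast was therefore partly fixed by the choice of the 267. The median of the 267 IDs went from -1.37 to 0.83, with 247 of 267 higher. A move upward was fixed by their choice, since they were chosen for a positive slope in libraries that also set the slope of the covariate, and transthyretin was lower in HFD; the values are a description. A covariate with 2 levels, transthyretin above or below 100 CPM, gave them a median of 0.85. For most of these IDs the sign of HFD minus control differed with and without transthyretin in the model.

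**Figure D2:**
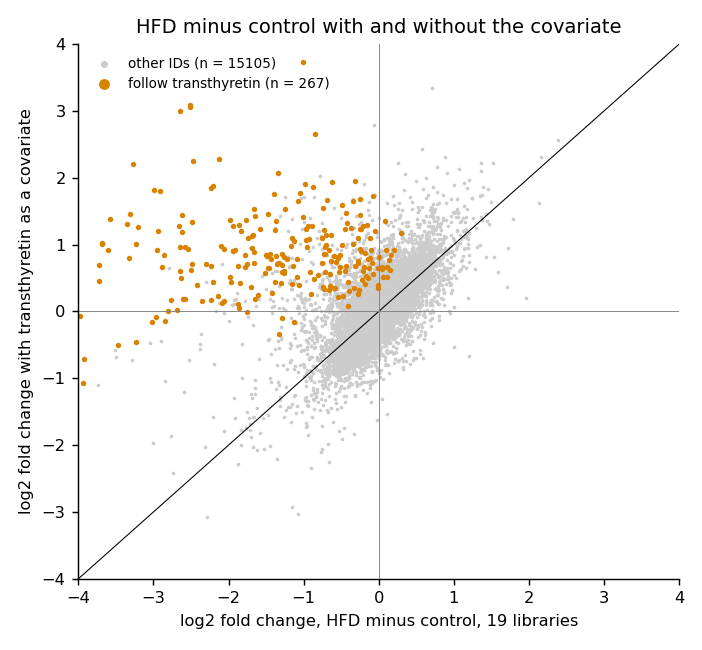
Log2 fold change of HFD minus control in the 19-library fit (x axis) against the same with the log2 CPM of transthyretin as a covariate (y axis), 1 point per ID, with 37 IDs beyond the axes; the diagonal marks equal values. The 267 IDs that follow transthyretin in the other groups (orange) lie mostly left of 0 and above 0, with medians of -1.37 and 0.83.

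Across all IDs, edgeR over 19 libraries called 0 of 15372 between HFD and control at an adjusted p under 0.05, and 1198 had an unadjusted p under 0.05. Of these, 734 were higher (4.77%) and 464 lower (3.02%) in HFD. By limma-voom 0 IDs were called, while 434 were higher and 540 lower at that unadjusted threshold, so the balance of directions turned with the tool. DESeq2 called 5, 1 higher and 4 lower, of which 3 were transthyretin or IDs that follow it. Of the 5, 2 are not printed here, and the smallest DESeq2 adjusted p, 1.85e-16, was that of an unprinted ID. The fit to the 2 groups alone called 3 of 14791 (0.0203%), all lower and all transthyretin or IDs that follow it; at an unadjusted p under 0.05 it had 335 IDs higher (2.26%) and 435 lower (2.94%).

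Most of the higher IDs lost their small p without HFD replicate 1. Of the 734 higher IDs, HFD replicate 1 was the highest of the 9 libraries for 646 (88.0%), against 33.8% of all IDs. This library took part in the choice of the 734. Without it, 709 kept their sign, 109 (14.9%) remained at an unadjusted p under 0.05, and their median log2 fold change went from 0.48 to 0.17. Of the 464 lower IDs, it was the lowest library for 304 (65.5%), against 36.5% of all IDs, with the same reservation. Without it all 464 were still lower, 218 (47.0%) remained at an unadjusted p under 0.05, and their median went from -0.79 to -0.66.

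Without HFD replicate 1, edgeR called 0 of 15547 IDs, and 587 had an unadjusted p under 0.05. Of these, 206 lay above control (1.33%) and 381 below it (2.45%). With the transthyretin covariate as well, edgeR called 0 and the number was 466, 276 higher (1.78%) and 190 lower (1.22%). Leaving out HFD replicate 2, 3 or 4 in its place gave 2130, 1633 and 1871, each with more higher than lower IDs, and 0 calls. Without control replicate 1 or 2, the libraries with the most transthyretin, the number was 705 (461 higher, 244 lower) and 669 (365 higher, 304 lower). Without control replicate 3, 4 or 5 it was 1363, 920 and 1077.

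**Figure D3:**
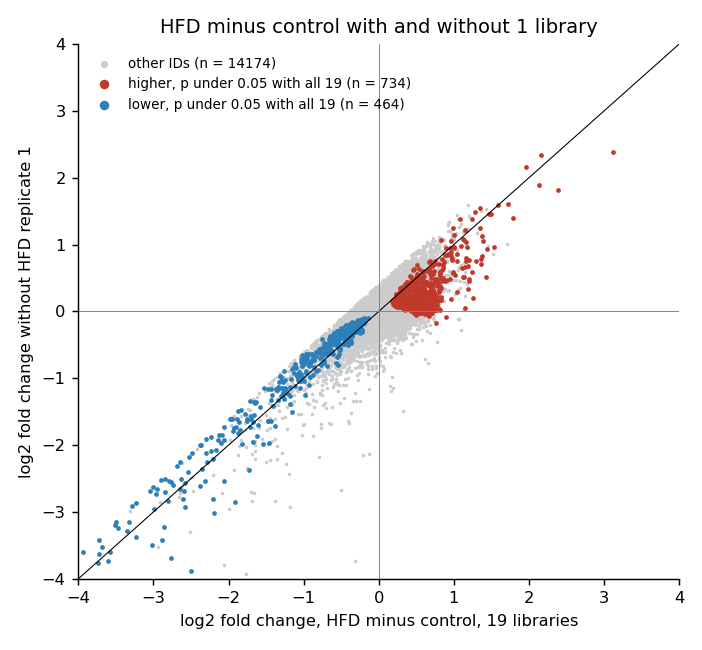
Log2 fold change of HFD minus control in the 19-library fit (x axis) against the same without HFD replicate 1 (y axis), 1 point per ID, with 42 IDs beyond the axes; the diagonal marks equal values. The median of the 734 higher IDs at an unadjusted p under 0.05 (red) falls from 0.48 to 0.17. That of the 464 lower ones (blue) moves from -0.79 to -0.66.

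**Figure D4:**
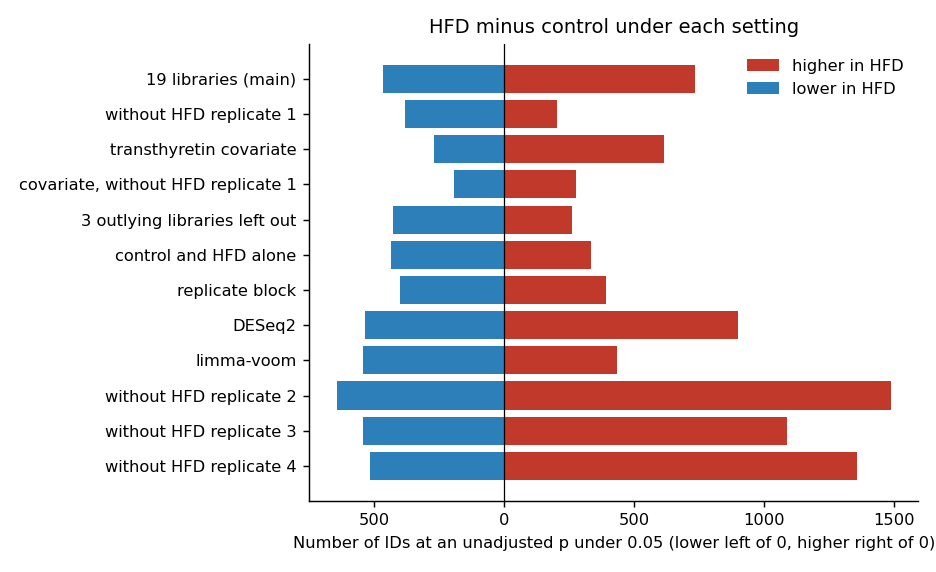
Number of IDs at an unadjusted p under 0.05 for HFD minus control under 12 of the settings, with lower IDs left of 0 and higher IDs right of 0. The 19-library fit has 734 higher and 464 lower, the fit without HFD replicate 1 has 206 and 381, and the fit with transthyretin as a covariate 616 and 269.

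The precision of the comparison limited what could be seen. The SE of a difference had a median over IDs of 0.21 with all 19 libraries, 0.18 without HFD replicate 1 and 0.28 with the covariate. For 11705 IDs (76.1%) the log2 fold change with 2 SE on either side lay within -1 and 1, so that a difference of 2-fold or more was outside that range. This share was 94.9% of the 2027 IDs with a mean over 100 CPM, 91.0% of the 7733 at 10 to 100 CPM, 58.7% of the 4568 at 1 to 10 CPM and 5.75% of the 1044 under 1 CPM. In the 19-library fit, differences of 2-fold were thus bounded for most of the abundant transcripts and not for the rare ones. Over all IDs the share was 79.7% without HFD replicate 1, 59.7% with the covariate, 53.5% with the covariate of 2 levels and 0.974% with the covariate in the 2 groups alone. Once transthyretin was in the model, fewer differences were bounded. The direction at an unadjusted p under 0.05 also varied with abundance. From 1 to 10 CPM 198 IDs were lower and 144 higher, from 10 to 100 CPM 185 lower and 410 higher, and over 100 CPM 35 lower and 153 higher. Without HFD replicate 1, the excess of higher IDs among abundant transcripts was not seen: 138 were lower and 112 higher from 10 to 100 CPM, and 14 lower and 10 higher over 100 CPM.

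Of the 15372 IDs tested, a set of 57 had an unadjusted p under 0.05 with the same sign in 4 fits. The fits were with all 19 libraries, without HFD replicate 1, with the covariate, and with both changes. With both changes, 1.78% of 15547 IDs were higher and 1.22% lower at that p. These are fewer than the threshold would pass on average if no ID differed. The set of 57 is therefore a description and was not tested against chance. The 4 fits share libraries and are not independent. Of the 57 IDs, 29 were higher in HFD, with a median log2 fold change of 0.71, and 28 lower, with a median of -0.64. None of the 57 belonged to the 267 IDs that follow transthyretin. The groups did not overlap for 14 of the 29 and 13 of the 28, against 0.618% and 1.61% of all IDs; the small p that chose these IDs favours such a gap, so the counts are a description. Between ELS-HFD and ELS, 24 of the 29 (82.8%) were also higher with the diet and 21 of the 28 (75.0%) also lower. These 2 groups share no library with HFD and control. Their libraries were in all 4 fits that chose the 57, where they helped set the spread and the slope of the covariate. The shared signs are therefore a description. Over all IDs the sign was shared by 70.2% of those higher and 68.1% of those lower in HFD. The ELS-HFD libraries included replicates 2 and 3, which stood apart in composition. In them the 10 most abundant IDs of HFD replicate 1 took 14.8% and 16.7% of the counts. The shared signs were not counted without these libraries. The interaction, which asks whether the diet's difference was the same with and without paternal stress, had an unadjusted edgeR p under 0.05 for 12 of the 29 and 6 of the 28. Over all IDs tested, 5.13% were at that p. Since the 57 were chosen by HFD minus control, which is part of the interaction, their counts are a description.

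The smallest p of a higher ID belonged to ENSRNOG00000015518. It was at 15.03, 16.1, 18.4, 16.4 and 17.5 CPM in control replicates 1 to 5, and at 32.9, 22.1, 23.3 and 28.3 CPM in HFD replicates 1 to 4. Every HFD library was above every control library, with HFD replicate 1 the highest. The log2 fold change was 0.68 ± 0.15 (SE), with an edgeR adjusted p of 0.616 and a DESeq2 adjusted p of 0.0318. It was 0.56 without HFD replicate 1, 0.34 with the transthyretin covariate and 0.22 with both changes (edgeR adjusted p from 0.718 to 1.00). ELS libraries were at 15.8 to 23.2 CPM and ELS-HFD libraries at 16.6 to 24.1 CPM, between the other 2 groups and overlapping both. In the ELS and ELS-HFD libraries its slope on transthyretin was -0.03 (edgeR adjusted p = 0.326). Over 19 libraries the slope was -0.04 (adjusted p = 0.235), without HFD replicate 1 -0.04 (adjusted p = 0.0801), and without that library and ELS-HFD replicates 2 and 3 -0.04 (adjusted p = 0.0208), which passed the threshold.

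ENSRNOG00000008859 was at 22.4, 20.9, 24.96, 19.4 and 21.3 CPM in control replicates 1 to 5 and at 31.2, 32.5, 28.1 and 33.7 CPM in HFD replicates 1 to 4. The groups did not overlap, and HFD replicate 1 lay within its group. The log2 fold change was 0.52 ± 0.12 (SE), with an edgeR adjusted p of 0.616. It was 0.53 without HFD replicate 1, 0.37 with the covariate and 0.38 with both, and over 25 settings it ran from 0.33 to 0.59 with adjusted p from 0.0691 to 1.00. This ID was the steadier of the pair, since neither change, nor both together, took it below 0.37. In daughters of stressed fathers the means were in the opposite order, within their spread: ELS libraries averaged 26.0 ± 3.62 CPM (SD, n = 5) and ELS-HFD libraries 23.3 ± 3.32 CPM (SD, n = 5). The interaction, HFD minus control less ELS-HFD minus ELS, was 0.68 ± 0.17 (SE) on the log2 scale (edgeR adjusted p = 0.969).

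Among lower IDs the smallest p was that of ENSRNOG00000047746, which varied most among controls. It was at 61.8, 9.87, 254.7, 3.02 and 2.29 CPM in control replicates 1 to 5 and at 2.48, 1.47, 1.27 and 1.27 CPM in HFD replicates 1 to 4. The groups overlapped, since control replicate 5 lay below HFD replicate 1, and control replicates 1 and 3 carried most of the group's mean. The log2 fold change was -5.36 ± 1.25 (SE), with an edgeR adjusted p of 0.616 and a DESeq2 adjusted p of 0.00118, and it was -3.58 without control replicate 3. It was not among the IDs that follow transthyretin, with a slope of -0.01 (edgeR adjusted p = 0.985) in the other groups. The covariate left it at -5.37 over 19 libraries, and in the 2 groups alone, where diet and transthyretin cannot be told apart, it was -1.08. ELS libraries were at 0.871 to 5.53 CPM and ELS-HFD libraries at 1.54 to 11.6 CPM, all below the 2 high controls.

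ENSRNOG00000009967 was at 74.4, 89.1, 62.1, 66.7 and 81.3 CPM in control replicates 1 to 5 and at 46.5, 49.2, 57.7 and 49.9 CPM in HFD replicates 1 to 4. All HFD libraries were below all controls. The log2 fold change was -0.55 ± 0.14 (SE), with an edgeR adjusted p of 0.616, and it was -0.52 without HFD replicate 1, -0.47 with the covariate and -0.41 with both. ELS libraries averaged 73.6 ± 11.4 CPM (SD, n = 5), near the controls, and ELS-HFD libraries 65.8 ± 10.5 CPM (SD, n = 5), between the groups compared. Its interaction was -0.39 ± 0.19 (SE; edgeR adjusted p = 0.969).

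**Figure D5:**
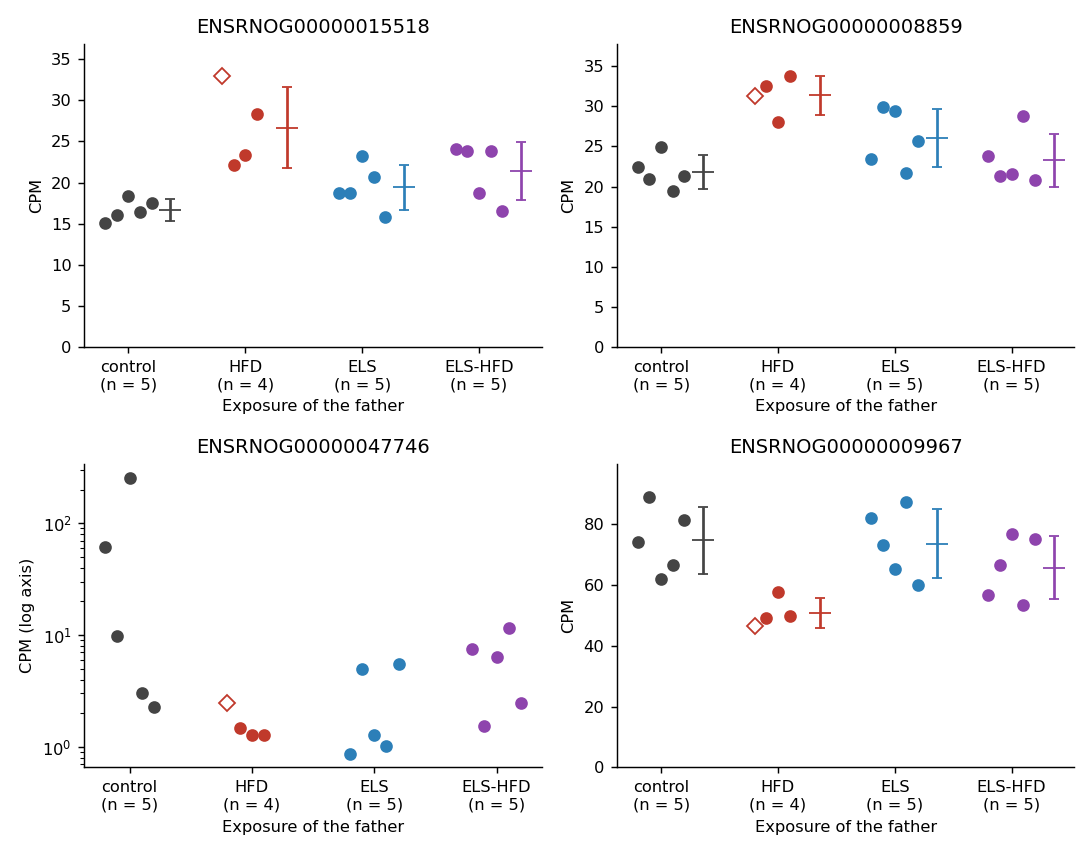
CPM of the 4 printed IDs in each library by the father's exposure, with the mean and SD beside the points (not drawn for ENSRNOG00000047746, which is on a log axis); the open diamond is HFD replicate 1. In 3 of the 4 panels the HFD points do not overlap the control points, and ENSRNOG00000047746 ranges from 2.29 to 254.7 CPM among controls.

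Whether the diet's difference depended on the father's early life was tested for all IDs by the interaction. It had 0 calls of 15372 in edgeR and 0 in limma-voom, and 788 IDs (5.13%) had an unadjusted edgeR p under 0.05. Without HFD replicate 1, edgeR again called 0, but 3135 IDs (20.2%) were at that p. Without that library and ELS-HFD replicates 2 and 3 there were 2016 (13%), with 0 calls. With transthyretin in the model, the number was 424 (2.76%) over 19 libraries and 967 (6.22%) without HFD replicate 1, each with 0 calls. The number thus varied both with HFD replicate 1 and with the covariate. DESeq2 called 5, all lower, with an adjusted p of 0.0214 for both transthyretin and ENSRNOG00000047746. The smallest DESeq2 adjusted p of the interaction, 1.13e-08, was that of an ID not printed here. Transthyretin differed by 1.48 on the log2 scale between ELS-HFD and ELS, against -10.00 between HFD and control, and its interaction was -11.48 ± 3.51 (SE; edgeR adjusted p = 0.969).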

How the data were processed

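Per the labels' protocols, polyadenylated RNA was fragmented and copied with random primers. The authors deposited raw whole-number counts, 1 row per Ensembl gene ID. Build Rnor_6.0 and the tool DESeq2 appear in the submitters' processing notes. Aligner, annotation release and strand setting were not given in the sources used here, so counts of overlapping or near-identical genes are uncertain. Each column was tied to its sample through the number in that sample's description, and 0 pairs of libraries were identical. Of 32883 IDs, 15372 passed edgeR's filterByExpr over the 4 groups.

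Groups were tested by quasi-likelihood F tests in edgeR 4.0.16 (R 4.3.3) on TMM-scaled counts in 1 fit to 19 libraries, Benjamini-Hochberg adjusted over all IDs and called under 0.05. The SE is the log2 fold change divided by the square root of F. Transthyretin as a covariate was its centred log2 CPM with a prior count of 2. The 267 IDs that follow it were defined in a fit to ELS and ELS-HFD libraries with a term for the group. Alternatives were DESeq2 1.42.0, limma-voom (limma 3.58.1), RLE scaling, other filters, a replicate block and libraries left out. The covariate and the libraries left out were part of the plan; the 2-level covariate, the 267 IDs and 4 further fits were added after seeing the data. The comparison, the printed IDs' rule and the covariate were chosen with earlier results of these data known. The 26 gene lists that were drawn up need symbols and were not applied, nor was the part of the named-gene rule that needs them.

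On simulated counts with 200 IDs changed in HFD against control, the 19-library fit (15222 IDs) recovered 65% of 2-fold and 87% of 4-fold changes with 4 false calls among 156. The fit without HFD replicate 1 (15286 IDs) recovered 58% and 85%, with 8 of 151 false, and the fit with the covariate (15222 IDs) 32% and 80%, with 5 of 117 false. Apart from the changed IDs and transthyretin, all simulated libraries shared the same mean levels. The changed IDs had a mean of at least 1 CPM. No simulated library stood apart as HFD replicate 1 did, and no ID was made to follow transthyretin. These shares check the fits and do not give the power of the real comparison.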

Additional observations from a re-analysis of the deposited data

Results flagged for a closer look

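In 4 of 26 sets of values, 1 library lay beyond Dixon's limit for its group, which chance passes in about 1 of 20 sets. HFD replicate 1 stood apart from the other HFD libraries in the share of its 10 most abundant IDs (25.8%) and in its TMM factor (0.772). The total of HFD replicate 4, 10092297 counts, lay well under those of replicates 1 to 3. Among ELS libraries, replicate 5 was far above the others in transthyretin (ENSRNOG00000016275), at 12.1 as log2 of CPM plus 1. The first pair of values describes the same shift in composition, so the 4 are not independent.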

How the results depend on the processing

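HFD minus control had 0 calls at an adjusted p under 0.05 in 21 of 24 alternatives; DESeq2 called 5, the edgeR fit to the 2 groups alone 3, and that fit without HFD replicate 1 called 1. The number at an unadjusted p under 0.05, 1198 with all 19 libraries, was 770 in the 2 groups alone, 690 when ELS-HFD replicates 2 and 3 were left out together with HFD replicate 1, 466 with the transthyretin covariate and HFD replicate 1 left out, 782 with the covariate and those 3 libraries left out, and 216 with the covariate in the 2 groups alone. Leaving out 1 control or HFD library at a time gave 587 (without HFD replicate 1) to 2130 (without HFD replicate 2). A replicate block gave 790. The replicate numbers are not shown to pair the libraries, since deviations of same-numbered control and HFD libraries correlated at -0.07 to 0.29 and 2 of 4 HFD libraries correlated best with their own number. The block changed no call. Higher IDs were 61.3% of the 1198, 35.1% without HFD replicate 1, 44.6% with limma-voom and 72.6% without HFD replicate 4. The interaction had 0 calls in all alternatives run except DESeq2, which called 5; its number at an unadjusted p under 0.05, 788 with all 19 libraries, was 282 (2-level covariate) to 3135 (without HFD replicate 1). It cannot be had from the 2 groups alone. The printed IDs kept their sign in all settings, and the cause of these shifts was not tested. Gene lists need symbols and were not run. At these totals, 5.75% of IDs under 1 CPM had a difference bounded within 2-fold.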
